A study of Mus musculus with 12 samples.

Results

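Aminoacyl-tRNA synthetases are the enzymes that join each amino acid to its transfer RNA. The genes described here are 36 synthetase genes chosen by symbol, of 23427 in the table: 20 for cytosolic enzymes (among them both subunits of the phenylalanine enzyme) and 16 for mitochondrial enzymes, whose symbols end in 2. All 36 had a value in each of the 4 RNA libraries. Lars2, the mitochondrial leucyl-tRNA synthetase gene, was kept apart from the other 15 mitochondrial genes because its row may also hold reads that resemble ribosomal RNA.

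The RNA came from in vitro cardiomyocytes made from CM7/1, a mouse embryonic stem cell line, which carried either an inducible Hey1 or an inducible Hey2 gene. Hey1 and Hey2 are transcriptional repressors that act downstream of Notch. The 4 groups were the Hey1 line without doxycycline, the Hey1 line with 1000 ng/ml doxycycline for 48 h, the Hey2 line without doxycycline and the Hey2 line with the same treatment, with 1 library in each. The labels do not say how many clones or cultures stand behind a library. No RNA library of doxycycline-treated cells without an inducible gene was analysed here, so effects of the drug and of the induced gene cannot be told apart. The study's 8 chromatin samples were not analysed here.

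Every group had 1 library, so no difference has a replicate check and none was tested. Levels are in RPKM, the reads of a gene relative to its length and to the depth of its library. A fold is a ratio of RPKM, and the range given with it is its exact 95% interval from the recovered reads, which covers counting error only. The listed genes of a library held 2296145 to 4182141 reads. Differences are of log2(RPKM + 1). They were computed for the 10991 genes that were listed in each library and averaged 1 RPKM or more. Differences by size are counted from 25% higher or 20% lower, which are the same ratio read in either direction.

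The labelled induction was visible in both lines. Hey1 stood at 0.735 RPKM in the uninduced and 8.59 RPKM in the induced Hey1 line, and Hey2 was blank (below about 5 reads) in the uninduced and at 6.59 RPKM in the induced Hey2 line. The lines differed widely in their cell markers, although both carry the label of cardiomyocytes. All 17 cardiomyocyte markers were listed in every library, with summed levels of 28147 and 28765 RPKM in the uninduced and induced Hey1 line against 1530 and 1580 RPKM in the Hey2 line. The 11 pluripotency markers summed to 43.1 and 33.6 RPKM in the Hey1 line and to 487 and 483 RPKM in the Hey2 line. For 12 proliferation markers the sums were 70.9 and 60.3 RPKM against 426 and 415 RPKM. Smooth muscle markers summed to 154 to 350 RPKM and the 6 epicardial markers to 15.2 to 201 RPKM, nearly all of it from the keratin genes Krt18 and Krt19, which other epithelial cells also express. Upk3b and Aldh1a2 were listed in the induced Hey2 line only, at 0.379 and 0.255 RPKM. That library had the most reads, and Hey2-line libraries list genes from about 5 reads against 10 for the Hey1 line. None of 5 blood markers was listed in any library. In such bulk samples, fewer cells of a type and less RNA per cell cannot be told apart.

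Cytosolic synthetases charge transfer RNAs for translation of nuclear genes, and a group of them is held together with 3 scaffold proteins in the multi-synthetase complex. Mitochondrial synthetases are encoded in the nucleus, imported, and supply the translation of the respiratory chain subunits encoded by mitochondrial DNA, on which heart muscle depends heavily. Many cytosolic synthetase genes are targets of ATF4, the transcription factor of the integrated stress response, which binds amino acid response elements with C/EBP partners.

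Promoter windows from RefSeq (build GRCm38.p6, 250 bases before to 50 bases after the gene start) were found for 27 of the 36 genes. No window was given for Cars, Hars, Lars, Nars, Rars, Vars, Wars, Hars2 or Pars2. The core of the amino acid response element, TGATGNAA on either strand, was present in 3.97% of all 32851 windows. It was present in 5 of 13 windows of cytosolic genes (Aars, Gars, Iars, Tars and Yars) and in 0 of 15 windows of mitochondrial genes. All 5 genes belong to a list of 13 cytosolic synthetases known as ATF4-responsive, 8 of which had a window, and 0 of the 5 windows of cytosolic genes outside that list held the core. Of 30 windows of other integrated stress response genes, 8 held it. These windows show the core where it lies upstream of the start. Capitals mark the match, which is read on the strand opposite to the gene, and it begins 112, 30 and 15 bases before the start in Aars (chr8:111033704-111033763, plus strand), Gars (chr6:55037945-55038000, plus strand) and Tars (chr15:11399659-11399699, minus strand).
Aars: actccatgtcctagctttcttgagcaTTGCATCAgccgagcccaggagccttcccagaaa
Gars: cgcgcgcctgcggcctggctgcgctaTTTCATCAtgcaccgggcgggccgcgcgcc
Tars: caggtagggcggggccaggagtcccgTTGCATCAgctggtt

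Hey proteins are known to bind E boxes, and 2 such motifs were searched on both strands. CACGTG was present in 7.15% of all windows, in 4 of 13 cytosolic windows (Aars, Farsb, Iars and Tars) and in 1 of 15 mitochondrial windows (Ears2). CACGCG was present in 9.27% of all windows, in 5 of 13 cytosolic windows (Eprs, Farsa, Mars, Tars and Yars) and in 2 of 15 mitochondrial windows (Iars2 and Mars2). The 3 upstream CACGTG matches are shown because the induced proteins are known for this motif. They begin 146, 69 and 39 bases before the start in Aars (chr8:111033670-111033727, plus strand), Iars (chr13:49682035-49682092, plus strand) and Farsb (chr1:78488905-78488962, minus strand), with the match in capitals. A match is only a description of these letters.
Aars: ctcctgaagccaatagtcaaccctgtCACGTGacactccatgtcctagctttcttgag
Iars: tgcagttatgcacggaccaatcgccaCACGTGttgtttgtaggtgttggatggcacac
Farsb: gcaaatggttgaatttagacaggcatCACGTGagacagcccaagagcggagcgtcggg

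Cytosolic synthetase transcripts were abundant in all libraries. All 20 lay above the median of the compared genes in every library, and their own median was 19.6, 17.8, 24.3 and 22.2 RPKM in the uninduced Hey1, induced Hey1, uninduced Hey2 and induced Hey2 libraries, the order used for all sets of 4 values. The compared genes had a median of 5.42, 5.07, 6.40 and 6.44 RPKM. The median rank of the cytosolic genes among the compared genes was at the 85.3, 84.6, 88.2 and 87.2 percentile.

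The 15 mitochondrial genes other than Lars2 had medians of 3.82, 3.63, 3.79 and 4.41 RPKM, below the median of the compared genes in each library. Only 4, 3, 4 and 3 of the 15 were above that median. Summed over the class, cytosolic genes reached 506, 490, 591 and 578 RPKM and the 15 mitochondrial genes 81.1, 79.0, 85.4 and 81.3 RPKM. The sums of each class differed little with induction in either line. Read numbers differed accordingly: 143 to 2361 reads a library and gene, with a median of 501, for cytosolic genes and 10 to 827, with a median of 79, for the 15 mitochondrial genes.

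**Figure D1:**
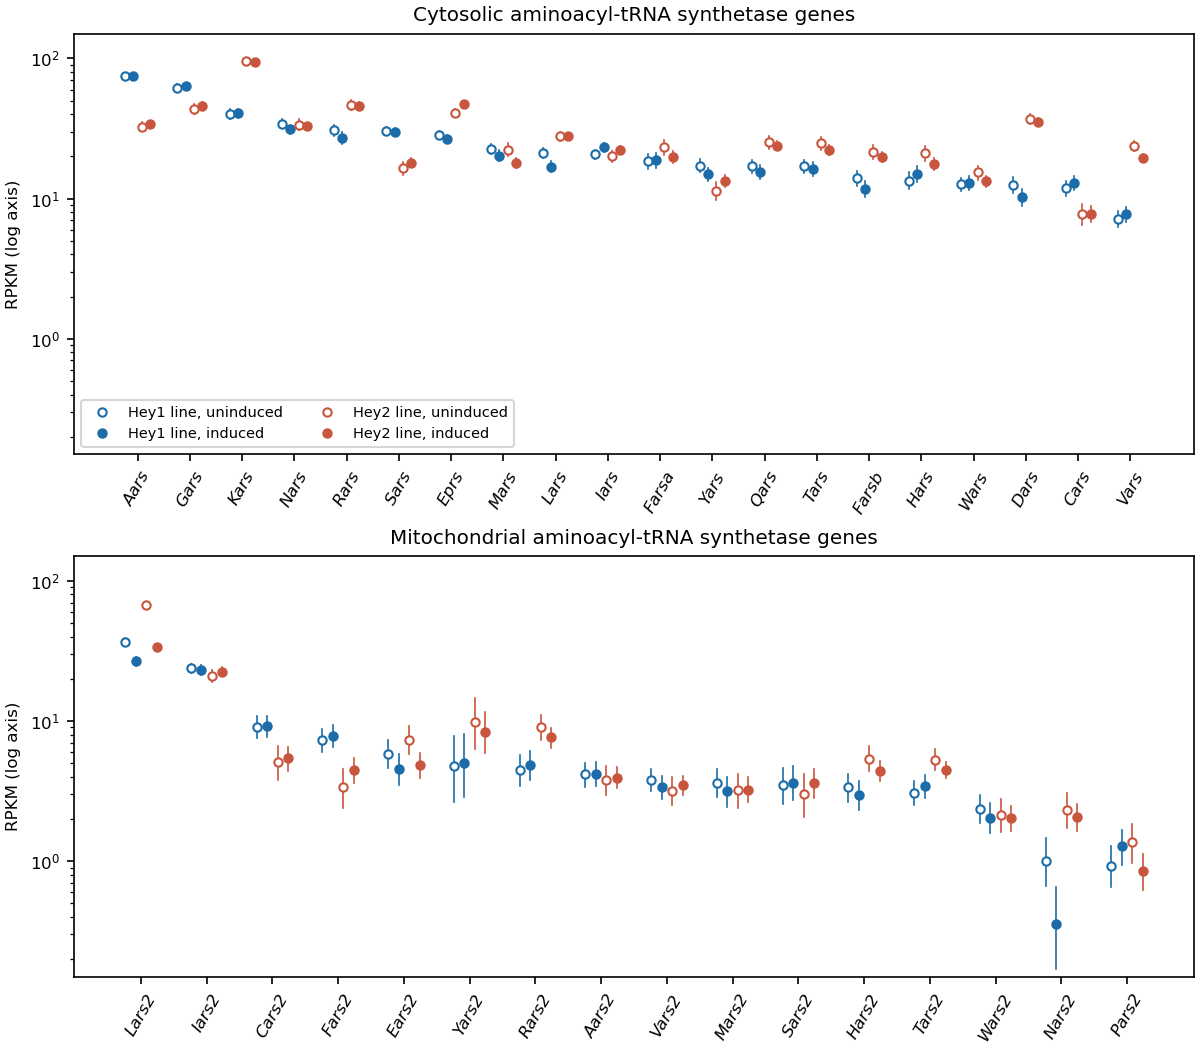
Level of each of the 36 synthetase genes in RPKM on a log axis, cytosolic above and mitochondrial below, with genes ordered by their level in the uninduced Hey1 line. Points are single libraries (open, uninduced; filled, induced; blue, Hey1 line; red, Hey2 line) and bars are exact 95% Poisson intervals of counting error. The open and filled point of a line lie close together for most genes, while the colours separate for genes such as Aars, Kars, Dars and Vars.

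At the top of the cytosolic class stood different genes in the lines. Aars, the alanyl-tRNA synthetase, was at 74.5, 75.01, 32.6 and 34.0 RPKM. Gars, the glycine enzyme, which serves both cytosol and mitochondria from 1 gene, was at 61.9, 63.4, 43.6 and 45.9 RPKM. Kars, the lysine enzyme, which likewise serves both compartments, was at 40.0, 40.5, 95.5 and 94.97 RPKM. Aars was thus the highest synthetase in both Hey1-line libraries and Kars in both Hey2-line libraries. In the Hey1 line the ratio of Kars to Gars was 0.647 and 0.639, against 2.19 and 2.07 in the Hey2 line, so the order of these dual-compartment enzymes was opposite in the lines.

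The lowest cytosolic genes were Vars, Cars and Dars in the uninduced Hey1 line and Cars, Yars and Wars in the uninduced Hey2 line. Vars, the valine enzyme, was at 7.20, 7.73, 23.9 and 19.5 RPKM. Cars, the cysteine enzyme, was at 11.8, 12.9, 7.72 and 7.78 RPKM. Dars, the aspartate enzyme, was at 12.4, 10.2, 36.9 and 34.997 RPKM. Yars, the tyrosine enzyme, was at 17.2, 14.9, 11.3 and 13.3 RPKM, and Wars, the tryptophan enzyme, at 12.7, 13.0, 15.4 and 13.3 RPKM. For Vars and Dars both values of the Hey2 line lay above both of the Hey1 line, and for Cars and Yars both lay below. The lines of Wars were barely apart, with 13.0 RPKM as the higher value of the Hey1 line and 13.3 RPKM as the lower of the Hey2 line.

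The phenylalanine enzyme is built from alpha and beta subunits encoded by Farsa and Farsb. Farsa was at 18.5, 18.7, 23.2 and 19.8 RPKM and Farsb at 13.96, 11.7, 21.5 and 19.7 RPKM. Farsa over Farsb was 1.32 and 1.60 in the Hey1 line, against 1.08 and 1.00 in the other, so the subunit transcripts were nearer to equal in the Hey2 line.

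Among mitochondrial genes other than Lars2, Iars2, the isoleucine enzyme, was by far the highest in each library, at 23.7, 23.2, 21.1 and 22.5 RPKM. Next in the uninduced Hey1 line came Cars2, the cysteine enzyme, at 9.13, 9.15, 5.08 and 5.42 RPKM, and Fars2, the phenylalanine enzyme, at 7.31, 7.84, 3.35 and 4.44 RPKM. In the uninduced Hey2 line those places were taken by Yars2, the tyrosine enzyme, at 4.75, 4.996, 9.77 and 8.35 RPKM, and Rars2, the arginine enzyme, at 4.49, 4.86, 9.04 and 7.64 RPKM. The recovery gave 15, 16, 24 and 37 reads for Yars2 at 427 bases, the smallest gene length that gives whole reads. A true length that is a multiple of it would mean more reads and narrower intervals, so the reads of Yars2 are uncertain.

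The lowest genes of the class were Pars2, Nars2 and Wars2. Pars2, the proline enzyme, was at 0.928, 1.27, 1.36 and 0.846 RPKM (36, 50, 41 and 46 reads). Nars2, the asparagine enzyme, was at 1.01, 0.355, 2.32 and 2.05 RPKM (28, 10, 50 and 80 reads). Wars2, the tryptophan enzyme, was at 2.37, 2.04, 2.14 and 2.02 RPKM. The levels of Wars2 differed between libraries by less than their counting error in each comparison, while the Nars2 value of the induced Hey1 line stood below the other 3. That Nars2 value, at 10 reads, was at the limit from which Hey1-line libraries list genes.

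For 15 amino acids other than leucine, the cytosolic and the mitochondrial gene could be set side by side, using Eprs, the joint glutamate and proline enzyme, against Ears2 and against Pars2, and the mean of Farsa and Farsb against Fars2. The cytosolic gene was the higher of the pair in 14, 15, 14 and 14 of 15 pairs, and at least 2-fold higher in 12 pairs in each library. The median ratio was nearly the same in all libraries, at 5.34, 5.55, 5.57 and 5.57. Isoleucine was the pair nearest to equal, with ratios of 0.870 to 1.00. The cysteine ratio was 1.30 to 1.52. The tyrosine ratio was 3.63 and 2.98 for Hey1-line libraries against 1.16 and 1.60 for Hey2-line libraries, with an uncertain number of reads for Yars2.

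Some pairs differed between the lines. The alanine ratio was 17.9 in both Hey1-line libraries and 8.61 and 8.63 in the Hey2 line, and the valine ratio 1.89 and 2.29 against 7.50 and 5.60. The phenylalanine ratio was 2.22 and 1.94 against 6.67 and 4.45. In leucine, and there with Lars2 in the pair, the mitochondrial gene was the higher, with a ratio of Lars to Lars2 of 0.416 to 0.821. The widest ratios, 14.6 to 88.0 for asparagine and 21.0 to 55.5 for proline, contain the thinly covered Nars2 and Pars2.

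Induction of Hey1 left cytosolic synthetase transcripts close to their uninduced levels. Of 20 genes, 9 were higher and 11 lower, with a median difference of -0.042 in log2(RPKM + 1) beside -0.061 over all compared genes, 61.6% of which were lower. With other scalings of the libraries the sign turned, to 12 higher and 8 lower (median 0.043) by median ratios and 11 higher and 9 lower (median 0.019) by upper quartiles. None of the 20 was 25% higher or 20% lower. Among all compared genes 6.44% were at least that much higher and 19.9% lower, and among those with at least 100 reads in both libraries, as all 20 cytosolic genes had, 2.73% were higher and 10.7% lower.

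The counting interval lay off equal expression for 3 cytosolic genes in the Hey1 line. Lars, the leucine enzyme, was at 21.1 RPKM uninduced and 16.9 RPKM induced, 1.24-fold lower (1.10 to 1.41). Dars was 1.22-fold lower (1.00 to 1.48). Iars, the isoleucine enzyme, was at 20.7 and 23.3 RPKM, 1.13-fold higher (1.02 to 1.252). Over all compared genes, 4.88% had such an interval above and 13.5% below equal expression, beside 1 of 20 above and 2 of 20 below. These shares were not matched for reads, and more reads narrow an interval. Cytosolic genes had a median of 501 reads, against 99 and 95 for listed genes of the uninduced and induced Hey1 line. The same limit holds for the interval shares given below. Lars, Dars and Iars all belong to the multi-synthetase complex. In this induction 6 of the 8 complex genes lay below their uninduced level and 2 above it, beside 61.6% of all compared genes that were lower. The median difference of the 8 complex genes was -0.14, beside -0.061 over all compared genes. It was -0.057 under median ratio and -0.080 under upper quartile scaling, beside 0.011 and -0.0099. Among the 12 cytosolic genes outside the complex, 7 lay above and 5 below, with a median difference of 0.015. With Hey2 induction the order of these medians was the reverse. The complex genes were 3 higher and 5 lower (median -0.020) and the 12 others 5 higher and 7 lower (median -0.082).

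Induction of Hey2 gave a similar picture for the class. Of 20 cytosolic genes, 8 were higher and 12 lower, with a median difference of -0.039 beside -0.0024 over all compared genes, 50.6% of which were lower. Again none was 25% higher or 20% lower, where 9.64% of compared genes were higher and 9.63% lower, or 4.68% and 4.23% of those with at least 100 reads.

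Intervals lay off equal expression for 4 cytosolic genes in the Hey2 line. Mars, the methionine enzyme that also supplies initiator transfer RNA, was at 22.4 RPKM uninduced and 18.1 RPKM induced, 1.24-fold lower (1.08 to 1.41). Vars was 1.22-fold lower (1.10 to 1.36), and Hars, the histidine enzyme, went from 21.1 to 17.7 RPKM, 1.19-fold lower (1.01 to 1.41). Eprs was at 41.0 and 46.9 RPKM, 1.15-fold higher (1.07 to 1.23). The shares over all compared genes were 8.04% above and 6.63% below equal expression, against 1 and 3 of 20 here.

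Mitochondrial genes other than Lars2 were mixed in both inductions. In the Hey1 line 8 of 15 were higher and 7 lower (median 0.0032), beside 61.6% lower and a median of -0.061 over all compared genes. By size, 1 was at least 25% higher and 2 at least 20% lower, near the shares of 6.44% and 19.9% over all compared genes. Of the 10 with at least 50 reads in each library, 4 were higher and 6 lower (median -0.084). Nars2 was 2.84-fold lower (1.34 to 6.55), resting on 28 reads and on 10 reads at the listing limit. Pars2 was 1.37-fold higher (0.875 to 2.17) and Ears2, the glutamate enzyme, 1.29-fold lower (0.914 to 1.82), with intervals that include equal expression.

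In the Hey2 line 7 of the 15 were higher and 8 lower (median -0.056), beside 50.6% lower and a median of -0.0024 over all compared genes. Again 1 was at least 25% higher and 2 at least 20% lower, beside 9.64% and 9.63% of all compared genes. Ears2, at 5.86, 4.55, 7.35 and 4.86 RPKM, was 1.51-fold lower (1.10 to 2.07). Pars2 was 1.61-fold lower (1.03 to 2.50), opposite to its direction in the Hey1 line. Fars2 was 1.32-fold higher (0.911 to 1.96). Ears2 was the mitochondrial gene outside Lars2 that was at least 20% lower in both inductions, as 1 of 15. Beside it, 267 of the 10991 compared genes were at least that much lower in both. The Ears2 values rest on 80, 63, 78 and 93 reads, and its interval with Hey1 induction includes equal expression.

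**Figure D2:**
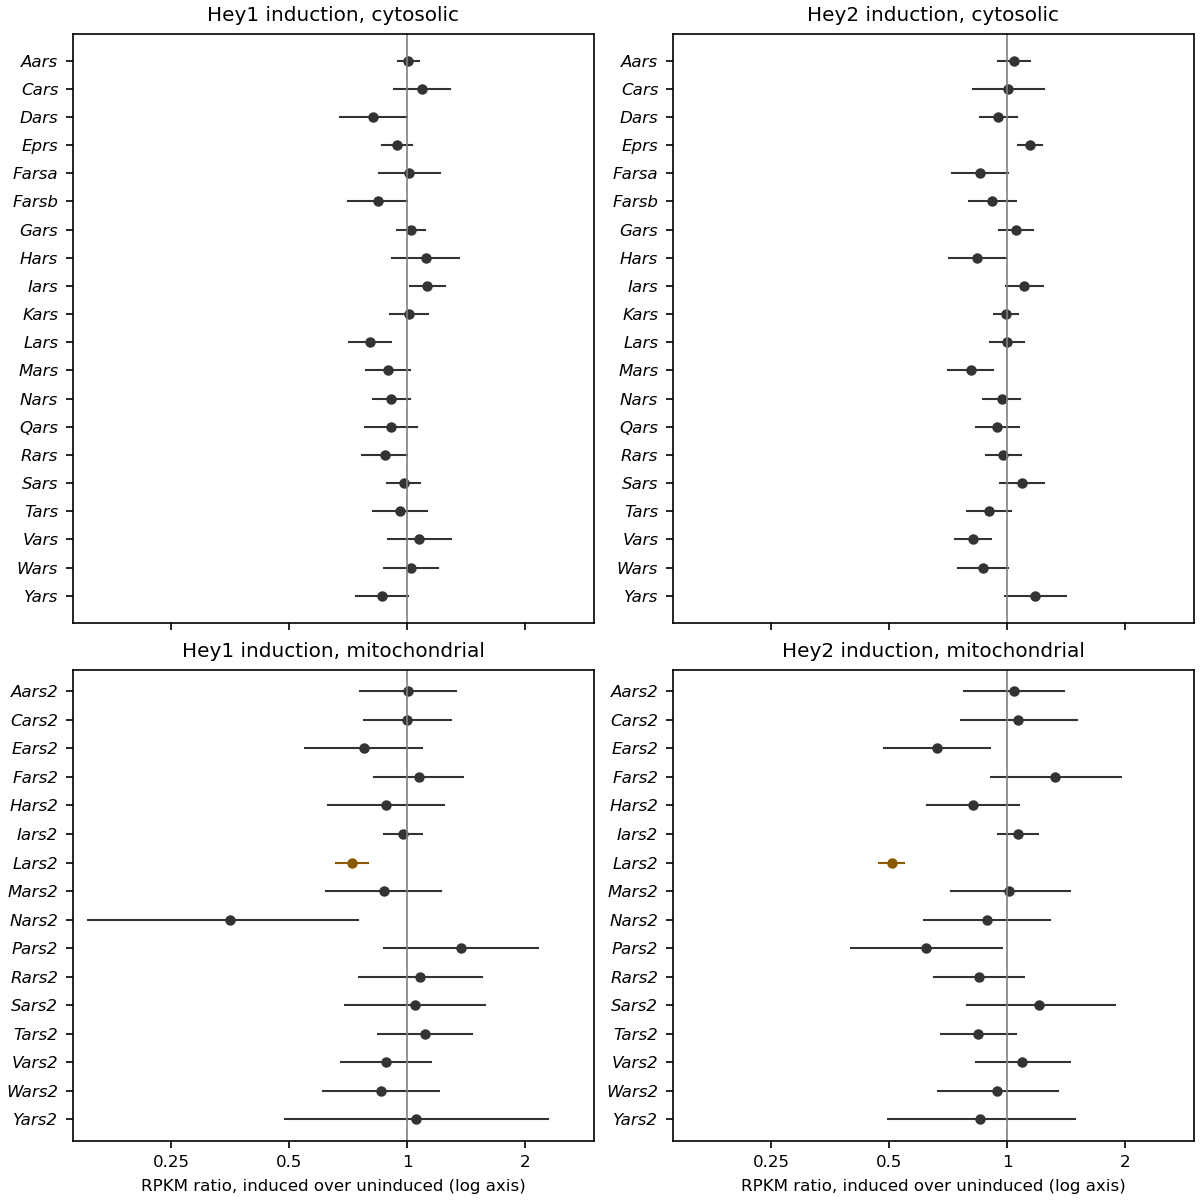
Ratio of induced to uninduced RPKM for each gene on a log axis, with exact 95% counting intervals, for the Hey1 line (left) and the Hey2 line (right), cytosolic above and mitochondrial below. Lars2 is brown and the vertical line marks equal levels. All cytosolic points lie less than 25% above and less than 20% below equal, and Lars2 lies lower in both panels.

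Directions in the inductions were set side by side without a test. Of the cytosolic genes, Dars, Farsb, Mars, Nars, Qars, Rars and Tars were lower in both, Aars, Cars, Gars and Iars were higher in both, and 9 had opposite directions. Of the 15 mitochondrial genes, Ears2, Hars2, Nars2 and Wars2 were lower in both, Aars2, Cars2, Fars2 and Sars2 higher in both, and 7 opposite. Over all compared genes 31.8% were lower in both, 19.6% higher in both and 48.6% opposite. Pearson's r of the differences was -0.092 across the 20 cytosolic genes and 0.14 across the 15 mitochondrial genes, as a description across genes that share their libraries. Of the 36 genes only Lars2 had a counting interval off equal expression in both inductions, and it was lower in each. No other member could therefore show opposite directions by this measure, and the share over all compared genes was not computed.

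Far larger than either induction was the gap between the uninduced lines, in which individual cytosolic synthetases lay up to 3.32-fold apart. Of 20 genes, 12 were higher and 8 lower in the Hey2 line (median 0.35 beside 0.20 over all compared genes, 58.0% of which were higher). By size, 11 were at least 25% higher and 5 at least 20% lower, beside 47.5% and 32.0% of all compared genes, and at 2-fold 3 were higher and 1 lower, beside 26.1% and 16.7%. Counting intervals lay above equal expression for 12 genes and below for 5, beside 44.0% and 28.9%. Scaling the libraries by median ratios or upper quartiles moved the median of all compared genes from 0.20 to 0.024 and 0.047. The cytosolic genes were still 12 higher and 8 lower under both scalings, with 8 and 9 at least 25% higher and 5 at least 20% lower.

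The genes higher in the Hey2 line were led by Vars, 3.32-fold (2.84 to 3.89), Dars, 2.96-fold (2.53 to 3.47), and Kars, 2.38-fold (2.16 to 2.63). Behind them came Hars at 13.5 and 21.1 RPKM in the uninduced Hey1 and Hey2 line (1.57-fold), Farsb (1.54-fold), and Rars, the arginine enzyme, at 30.8 and 46.7 RPKM (1.52-fold). Qars, the glutamine enzyme, was at 17.1 and 25.2 RPKM (1.48-fold), Tars, the threonine enzyme, at 17.0 and 24.8 RPKM (1.46-fold), and Eprs at 28.4 and 41.0 RPKM (1.44-fold). Lars was 1.32-fold, Farsa 1.26-fold and Wars 1.21-fold higher. The 12 genes include both members and non-members of the multi-synthetase complex.

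In the other direction stood Aars, 2.28-fold lower in the Hey2 line (2.09 to 2.49), and Sars, the serine enzyme, at 30.5, 29.8, 16.5 and 18.1 RPKM, 1.84-fold lower (1.63 to 2.09). Cars was 1.53-fold, Yars 1.52-fold and Gars 1.42-fold lower. For all 5 of these, both Hey2-line values were below both Hey1-line values. Iars at 20.7 and 20.02 RPKM, Nars, the asparagine enzyme, at 34.3 and 33.8 RPKM, and Mars at 22.6 and 22.4 RPKM differed by less than their counting error.

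**Figure D3:**
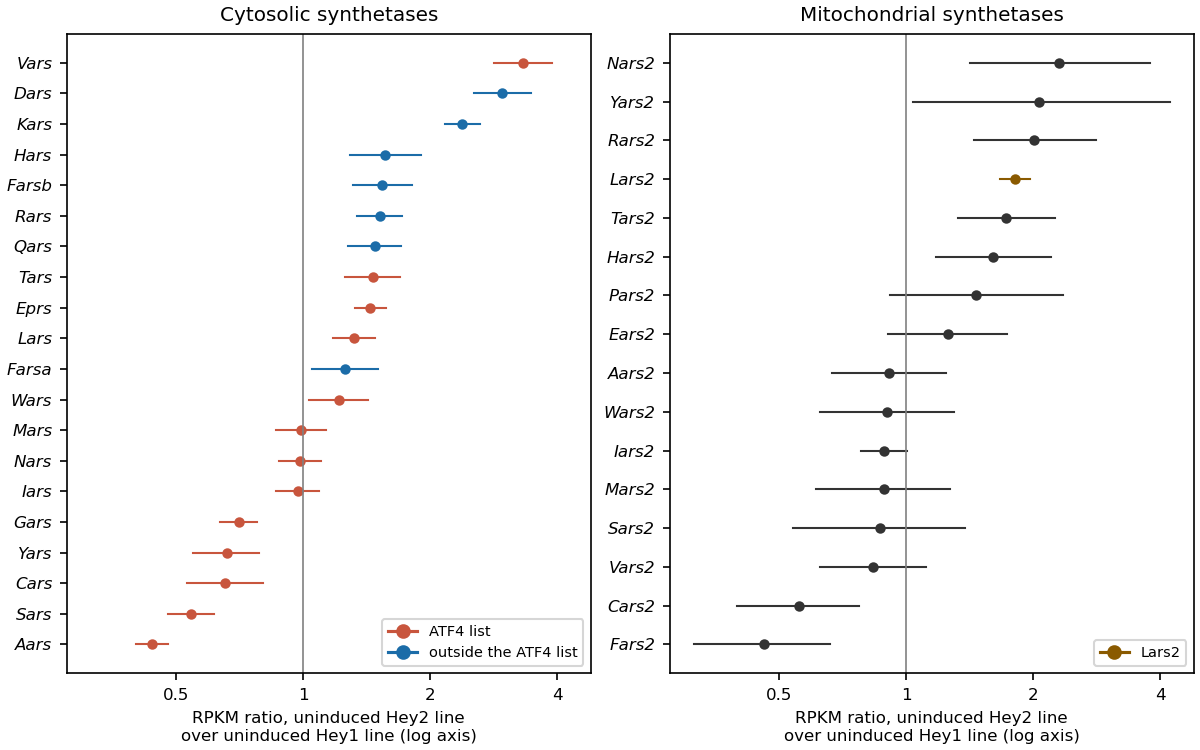
Ratio of RPKM in the uninduced Hey2 line to the uninduced Hey1 line on a log axis, with exact 95% counting intervals, for cytosolic genes (left; red, on the ATF4 list; blue, outside it) and mitochondrial genes (right; Lars2 in brown). All 7 blue genes lie above equal, whereas the red genes span from Aars, 2.28-fold lower, to Vars, 3.32-fold higher.

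The cytosolic genes were next split by membership in the ATF4 list, as a description, since the list was chosen with earlier results known. Of the 13 listed cytosolic genes, 5 were higher and 8 lower in the Hey2 line (median -0.022). All 7 cytosolic genes outside it (Dars, Farsa, Farsb, Hars, Kars, Qars and Rars) were higher (median 0.59). Over all compared genes 58.0% were higher (median 0.20). Under both scalings the 13 were still 5 higher and 8 lower and the 7 still all higher, with medians of -0.24 and -0.21 for the 13 and 0.38 and 0.41 for the 7. All 5 genes that lay at least 20% lower (Aars, Cars, Gars, Sars and Yars) belong to the list, as does Vars, the gene with the largest difference upwards. Between the induced lines the 7 were again all higher (median 0.70), though 5 of them under both other scalings. Of the 13 there were 6 higher and 7 lower, or 4 and 9 under both other scalings. In that comparison 60.1% of all compared genes were higher (median 0.27).

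Other genes of the integrated stress response were mostly lower in the Hey2 line. Of 28 such genes 26 could be compared, 5 were higher and 21 lower, with a median of -1.07, beside 42.0% of all compared genes that were lower. Under both scalings 3 were higher and 23 lower. Atf4 itself was at 72.3, 85.1, 20.3 and 17.9 RPKM. Atf5, a related factor, was at 40.8, 52.6, 2.36 and 2.47 RPKM and 17.3-fold lower (11.8 to 26.5), and Mthfd2, an enzyme of mitochondrial one-carbon metabolism, was at 58.6, 46.5, 9.16 and 9.03 RPKM. On the other side, Xpot, the nuclear exporter of transfer RNA, was at 5.98, 5.19, 10.2 and 9.67 RPKM, and Psat1, an enzyme of serine synthesis, at 17.3, 16.3, 26.9 and 28.7 RPKM. With Hey1 and Hey2 induction the medians of the 26 genes were -0.044 and 0.034.

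**Figure D4:**
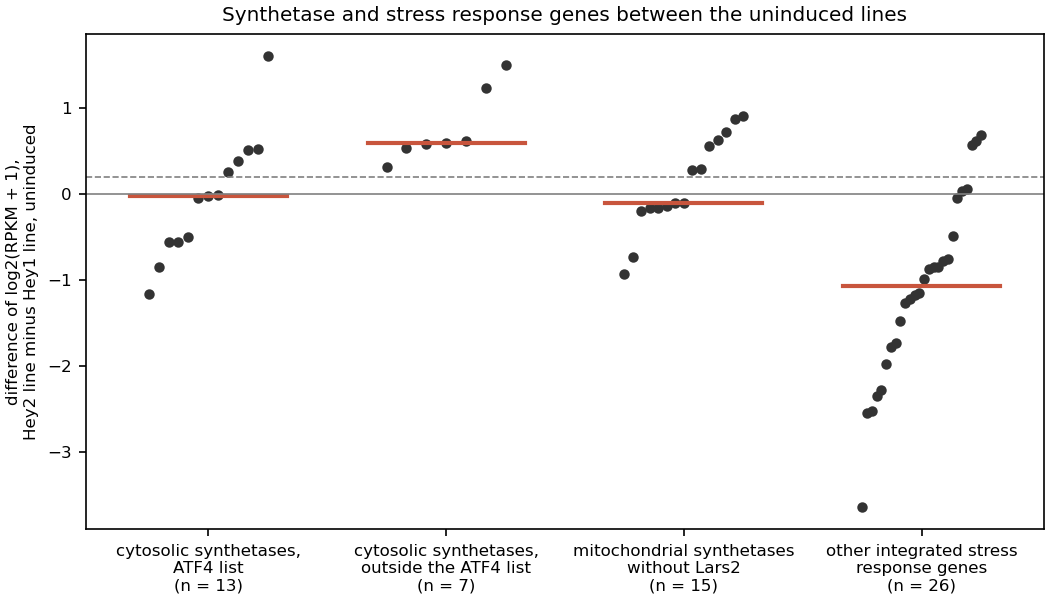
Difference of log2(RPKM + 1) between the uninduced lines (Hey2 line minus Hey1 line) for each gene of 4 sets, with the median of each set in red, a solid line at 0 and a dashed line at the median of all compared genes (0.20). The medians are -0.022 for cytosolic genes on the ATF4 list, 0.59 for those outside it, -0.10 for mitochondrial genes and -1.07 for other stress response genes.

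Genes of the multi-synthetase complex were on balance higher in the Hey2 line. Of 8 members, Eprs, Lars, Qars, Rars, Kars and Dars were higher and Iars and Mars close to equal (median 0.53, and 0.31 and 0.34 under the scalings). The 12 cytosolic genes outside the complex were 6 higher and 6 lower (median 0.12). Over all compared genes 58.0% were higher (median 0.20, and 0.024 and 0.047 under the scalings). The scaffold gene Eef1e1 was at 8.71, 7.19, 27.5 and 26.6 RPKM, 3.15-fold higher (2.36 to 4.25). Scye1, the symbol in the table for Aimp1, was at 29.7, 24.005, 36.6 and 35.7 RPKM, and Jtv1, that for Aimp2, at 26.7, 26.9, 20.6 and 20.7 RPKM, so the scaffold transcripts did not all differ in 1 direction. The summed proliferation and pluripotency markers were higher and the cardiomyocyte markers lower in the Hey2 line, as given above, and their part in these differences was not tested.

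Mitochondrial synthetases other than Lars2 were 7 higher and 8 lower in the uninduced Hey2 line (median -0.10), beside 58.0% higher and a median of 0.20 over all compared genes. Nars2 was 2.30-fold (1.42 to 3.79), Yars2 2.06-fold (1.04 to 4.22) and Rars2 2.01-fold (1.45 to 2.82) higher. The Yars2 interval takes the reads at its smallest fitting gene length and would be narrower at a longer one. Tars2, the threonine enzyme, at 3.08, 3.42, 5.31 and 4.48 RPKM, was 1.72-fold higher, and Hars2, the histidine enzyme, at 3.35, 2.96, 5.40 and 4.41 RPKM, was 1.61-fold higher. In the other direction, Fars2 was 2.18-fold (1.51 to 3.19) and Cars2 1.80-fold (1.30 to 2.52) lower. By size, 7 were at least 25% higher and 2 at least 20% lower with the deposited scaling, beside 47.5% and 32.0% of all compared genes. Under both other scalings they were 6 and 8, beside 39.9% and 38.5% under median ratio and 40.9% and 37.6% under upper quartile scaling.

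The remaining mitochondrial genes were low and nearly flat. Aars2, the alanine enzyme known for cardiomyopathy when mutated, was at 4.16, 4.18, 3.79 and 3.94 RPKM. Vars2, the valine enzyme, was at 3.82, 3.38, 3.18 and 3.49 RPKM, Mars2, the methionine enzyme, at 3.61, 3.15, 3.20 and 3.24 RPKM, and Sars2, the serine enzyme, at 3.47, 3.63, 3.005 and 3.63 RPKM. No comparison of these genes gave a counting interval off equal expression, at a depth where 2 of the 15 mitochondrial genes had at least 100 reads in every library.

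The induced libraries gave a second comparison of the lines, from cells of the same lines. Of the cytosolic genes, 19 of 20 had the same direction as between the uninduced libraries (Nars was the other), and of the mitochondrial genes 11 of 15 (Mars2, Pars2, Sars2 and Vars2 were the others), beside 90.8% of all compared genes. Under both other scalings it was 17 of 20 (Farsa, Hars and Wars were the others) and 13 of 15, beside 90.6% and 90.9%. Among the induced libraries 13 of 20 cytosolic genes were higher in the Hey2 line, beside 60.1% of all compared genes, with intervals above equal expression for 9 and below for 4, beside 48.1% and 29.2%. Under both other scalings 9 of the 20 were higher and 11 lower, with the median moving from 0.15 to -0.14 and -0.079. Vars was 2.52-fold, Dars 3.43-fold and Kars 2.35-fold higher and Aars 2.21-fold lower in the induced Hey2 line. The largest fold of a member there was Nars2, 5.78-fold higher (2.99 to 12.5), which contains the 10 reads of the induced Hey1 line, at its listing limit.

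Lars2 was the most abundant mitochondrial synthetase row and was lower in both inductions, as were Ears2, Hars2, Nars2 and Wars2. It was at 36.8, 26.7, 66.7 and 33.8 RPKM from 1058, 777, 1489 and 1362 reads, above Iars2 in every library (26.7 against 23.2 RPKM where they were nearest), and made up 31.2%, 25.3%, 43.9% and 29.4% of the summed level of the 16 mitochondrial genes. It was 1.38-fold lower (1.26 to 1.52) with Hey1 induction, where Nars2 differed more, and 1.97-fold lower (1.83 to 2.12) with Hey2 induction, where it ranked 39 from the lowest difference of the 10991 genes. In the uninduced Hey2 line it was 1.81-fold higher (1.67 to 1.96) than in the uninduced Hey1 line. Both induced values lay below both uninduced values.

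The genes most like Lars2 over the differences of both inductions and of the uninduced lines, by Euclidean distance, were not synthetases. The nearest were D130009I18Rik, a long non-coding RNA gene, at a distance of 0.216, Gphn, which encodes the synaptic scaffold gephyrin, at 0.220, Bcnp1 at 0.240, Il31ra, a cytokine receptor gene, at 0.253 and Rnd2, a small GTPase gene, at 0.329. Gphn was at 17.3, 13.8, 29.9 and 16.6 RPKM, and D130009I18Rik at 10.3, 6.57, 19.0 and 8.08 RPKM. Within a distance of 0.5 there were 17 genes. The closest synthetase, Ears2, ranked 171 of 10990 at 0.728.

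Rows of short RNAs were looked at beside Lars2 as candidates for reads like those of ribosomal RNA, from a list chosen with earlier results of these data known. The 4 that could be compared were lower in both inductions, beside 31.8% of all compared genes. Counting intervals lay below equal expression for 2 of the 4 in each, beside 13.5% with Hey1 and 6.63% with Hey2 induction. Because of how the list was chosen, these counts are a description only. Mir682 was at 131, 55.6, 245 and 177 RPKM, Mir1902 at 55.7, 36.7, 21.7 and 12.05 RPKM, and Mir5114 at 332, 120, 245 and 232 RPKM. The other, a row without a symbol in the table, was at 23.3, 15.3, 38.0 and 13.3 RPKM. In the uninduced Hey2 line Mir682 and the row without a symbol were higher than in the Hey1 line, as Lars2 was, and Mir1902 and Mir5114 were lower. Where along Lars2 its reads lie is not shown by a value per gene, and the part of ribosomal RNA-like reads in its differences was not tested.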

How the data were processed

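The authors deposited RPKM for 23427 genes, 1 column for each of 4 libraries, and a signed fold of induced against uninduced, a score that was not used, per the file headers. The submitters' processing notes name build mm9, Bowtie 1.0, DESeq and MACS 1.4.1, without roles. The annotation, read counter, handling of reads with several matches and any filter were not given in the sources used here. A blank cell was taken as missing. Whole reads were recovered from the steps of the values for 15363 of 15371 listed genes (99.9%; tolerance 3e-06 reads, gene lengths up to 25000 bases), with divisors of 7400000, 7500000, 5750000 and 10375000 reads. Values were listed from about 10 reads for Hey1-line and 5 for Hey2-line libraries. The recovery and the intervals were tested on simulated data. Fold intervals are conditional binomial and level intervals Poisson, and PCR copies are not independent molecules, so they cover counting error only. Genes with near-identical copies or overlapping neighbours are uncertain. Values in full were given for members 25% higher or 20% lower in an induction with an interval off equal, for the 3 highest and lowest and the 3 largest and smallest line differences of each class, and for Lars2. The 5 genes nearest to Lars2 and the extremes of the stress response list were named by rule, and Atf4, the short RNAs and the genes named from further translation lists were chosen after their values were seen. The members, lists, sizes and alternatives were chosen with earlier results of these data known. Computation used Python 3.11.15, NumPy 2.4.6, pandas 2.3.3, SciPy 1.17.1 and Matplotlib 3.10.9. The alternatives were 2 other pseudocounts, 2 other scalings, 3 filters and blanks read as 0.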

Additional observations from a re-analysis of the deposited data

How the results depend on the processing

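The median differences of the cytosolic genes and of the 15 mitochondrial genes, and the difference of Lars2, were recomputed in 3 comparisons under 8 alternatives. Of 72 values, 62 moved by less than counting error or not at all and 10 by more, and 4 changed sign. Values without a filter or with blanks read as 0 could not move, because every member was already listed and compared. Cytosolic and Lars2 values also could not move under the filters of 5 RPKM on average or 50 reads, which all these genes passed. The 62 thus include values that were fixed in advance and say nothing about robustness. The filter of at least 50 reads in each library was added after seeing the data. Under it the mitochondrial median with Hey1 induction went from 0.0032 to -0.084 for the 10 genes left, a change of sign within counting error. With Hey1 induction the cytosolic median of -0.042 became 0.043 under median ratio scaling and 0.019 under upper quartile scaling, while that of all compared genes went from -0.061 to 0.011 and -0.0099. Between the uninduced lines the cytosolic median of 0.35 became 0.30 with a pseudocount of 5 RPKM, 0.14 under median ratio and 0.17 under upper quartile scaling. There the mitochondrial median of -0.10 became -0.25 and -0.23 under these scalings and 0.060 for the 6 genes that averaged 5 RPKM or more, and the Lars2 difference of 0.84 became 0.62 and 0.65. The scalings multiply a library by 1 factor, so they shift all genes of a comparison together, and these filters leave fewer genes. With Hey1 induction, the shares of all compared genes at least 25% higher and 20% lower were 11.2% and 13.6% under median ratio and 9.54% and 15.1% under upper quartile scaling. Depth limits Nars2 and Pars2 most, and the recovered reads of Yars2 are uncertain. No paired analysis was possible because each group has 1 library.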

Other observations

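Other genes that work with the synthetases also differed between the uninduced lines. Of 13 compared genes related to synthetases, 10 were higher and 3 lower in the Hey2 line, with a median of 0.47, beside 58.0% higher and a median of 0.20 over all compared genes. Trnt1, which adds the CCA end to transfer RNA, was at 5.08, 4.34, 12.7 and 12.8 RPKM in the uninduced Hey1, induced Hey1, uninduced Hey2 and induced Hey2 libraries. Dtd1, which removes D-amino acids from transfer RNA, was at 3.16, 3.74, 10.03 and 9.84 RPKM. Pet112l, a subunit of the enzyme that makes glutaminyl-tRNA in mitochondria from the product of Ears2, was in the opposite direction at 7.32, 7.22, 4.30 and 4.72 RPKM.

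Of 10 genes on a list of elongation factors and related genes, 9 were higher in the uninduced Hey2 line (median 0.76), beside the same 58.0% and 0.20. The list also holds Eef2k and Eef1e1, and Eef1e1 was given above as a scaffold gene. Eef1a1, the general carrier of charged transfer RNA, was at 354, 332, 650 and 616 RPKM, whereas Eef1a2, its form of muscle and neurons, was at 196, 235, 11.4 and 13.4 RPKM. Of 12 mitochondrial translation factor genes 8 were higher and 4 lower (median 0.17), near that share, and the elongation factors Tufm, at 28.4, 33.1, 16.9 and 16.6 RPKM, and Gfm1, at 24.7, 23.0, 13.4 and 15.4 RPKM, were among the lower. Under both other scalings, 6 of the 12 mitochondrial factors were higher and 6 lower, and 8 of the 10 genes on the elongation list were higher. Of the 13 genes related to synthetases, 9 and 10 were higher. The part of the lines' cell makeup in these values was not tested.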
